A study of Mus musculus with 16 samples.

Results

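The plasma membrane amino acid transporters described here are 10 genes of the solute carrier families, Slc7a11, Slc7a5, Slc3a2, Slc7a1, Slc7a3, Slc1a4, Slc1a5, Slc38a1, Slc38a2 and Slc6a9, out of 22894 genes with a usable probe on the array. They were taken by name, and each was represented by the brightest of the probes whose RefSeq accession carries its symbol. All 10 were on the array. Total RNA from BAT and gonadal white adipose tissue (gWAT) was hybridized to 16 Agilent 1-colour arrays, 4 for each tissue and genotype. All mice were males of the strain C57BL/6NCrSlc that carried floxed Pgam1 alleles. Adipo-Pgam1 KO mice also carried Adipoq-Cre, in which the adiponectin promoter drives Cre recombinase in adipocytes, and their littermate controls did not carry it. The labelled age was 16 weeks, except for replicate 4 of the KO groups in both tissues, which was 14 weeks. The labels do not say whether arrays came from separate animals, so the p-values measure the spread between these samples, which may be technical.

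Amino acids cross the plasma membrane through carriers with overlapping sets of substrates, and a cell's supply depends on which of these carriers it makes. Exchangers of the Slc7 family pair with the heavy chain encoded by Slc3a2, the cationic carriers of the same family work without it, Slc1a4, Slc1a5 and the Slc38 carriers listed here move small neutral amino acids, and Slc6a9 takes up glycine. Many of these genes belong to the amino acid response, in which the transcription factor Atf4 raises transporters and biosynthetic enzymes when amino acids are short or the integrated stress response is active. In adipose tissue, amino acids serve as fuel and as building blocks. Pgam1, the deleted gene, encodes the glycolytic phosphoglycerate mutase.

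Levels are log2 intensities relative to the 75th percentile of the array, so that 0 is the level of that percentile. They are set against each other only within a probe. Pgam1 had a mean level of 7.94 ± 0.11 (SD, n = 4) in BAT of controls and 6.20 ± 0.17 (SD, n = 4) in that of the KO mice. The gWAT arrays went against their label, since the mean Pgam1 level was 6.31 ± 0.25 (SD, n = 4) in those labelled Adipo-Pgam1 KO, against 5.36 ± 0.29 (SD, n = 4) for controls. A second Pgam1 probe moved the same way, by -1.65 in BAT and 1.02 in gWAT. The paper itself reports less Pgam1 in gWAT of Adipo-Pgam1 KO mice by PCR, western blot and enzyme activity. The sources used here do not name the floxed exons, and where the probes lie relative to the deleted sequence was not tested. In the same arrays labelled KO, 3 of 5 tested brown adipocyte markers were higher than in controls, Cidea by 3.41, Cpt1b by 4.23 and Elovl3 by 4.35, and Ucp1 was well above background on 3 arrays. Every direction given for gWAT rests on the label. Tissue markers were as labelled, since Ucp1 and Zic1, which mark brown fat, were well above background on all BAT arrays and on no gWAT control array, and Wt1, which marks visceral white fat, was so on all 8 gWAT arrays and on no BAT array. Of the BAT arrays, 3 controls were on slide 1 and 1 control was on slide 2 with all 4 KO arrays. Of the gWAT arrays, 3 controls were on slide 2 and 1 control was on slide 3 with all 4 arrays labelled KO. A genotype difference within the slide is thus that of 1 control against 4 arrays.

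Among the 10 transporters, Adipo-Pgam1 KO mice had 5 higher and 1 lower in BAT when compared with their littermates in limma (adjusted p under 0.05). The 5 that rose were Slc7a11, Slc7a1, Slc7a3, Slc38a1 and Slc6a9, by fitted changes of 2.84 to 4.32 on the log2 scale, and the 1 that fell was Slc1a5, by 0.94. Of all 14267 genes tested in BAT, 61.4% passed the same threshold, 27.5% higher and 33.9% lower. Slc7a11 and Slc7a3 entered this test through the KO arrays alone, since no control array had them well above background. The median log2 change of the 10 transporters was 1.86, and that of all genes tested was -0.08. The former takes Slc3a2 by its brightest probe, although its second probe went the other way. It also takes Slc7a11 and Slc7a3 from control levels in the background. The groups did not overlap for 7 of the 10 transporters, 5 higher and 2 lower, and for 57.1% of all genes, 25.2% higher and 31.9% lower. In gWAT, 8 of the 10 transporters were tested, and 2 of them, Slc1a4 and Slc1a5, passed the threshold, and both were lower in the group labelled KO, without overlap. Of all 14137 genes tested in gWAT, 17.9% passed, 10% higher and 7.86% lower, and 24.2% did not overlap, 13.3% higher and 10.8% lower. The median log2 change of the 8 transporters in gWAT was -0.05, against 0.05 over all genes. In both tissues a change in a bulk sample can come from fewer or more cells of a type or from less or more RNA per cell, which cannot be told apart here.

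**Figure D1:**
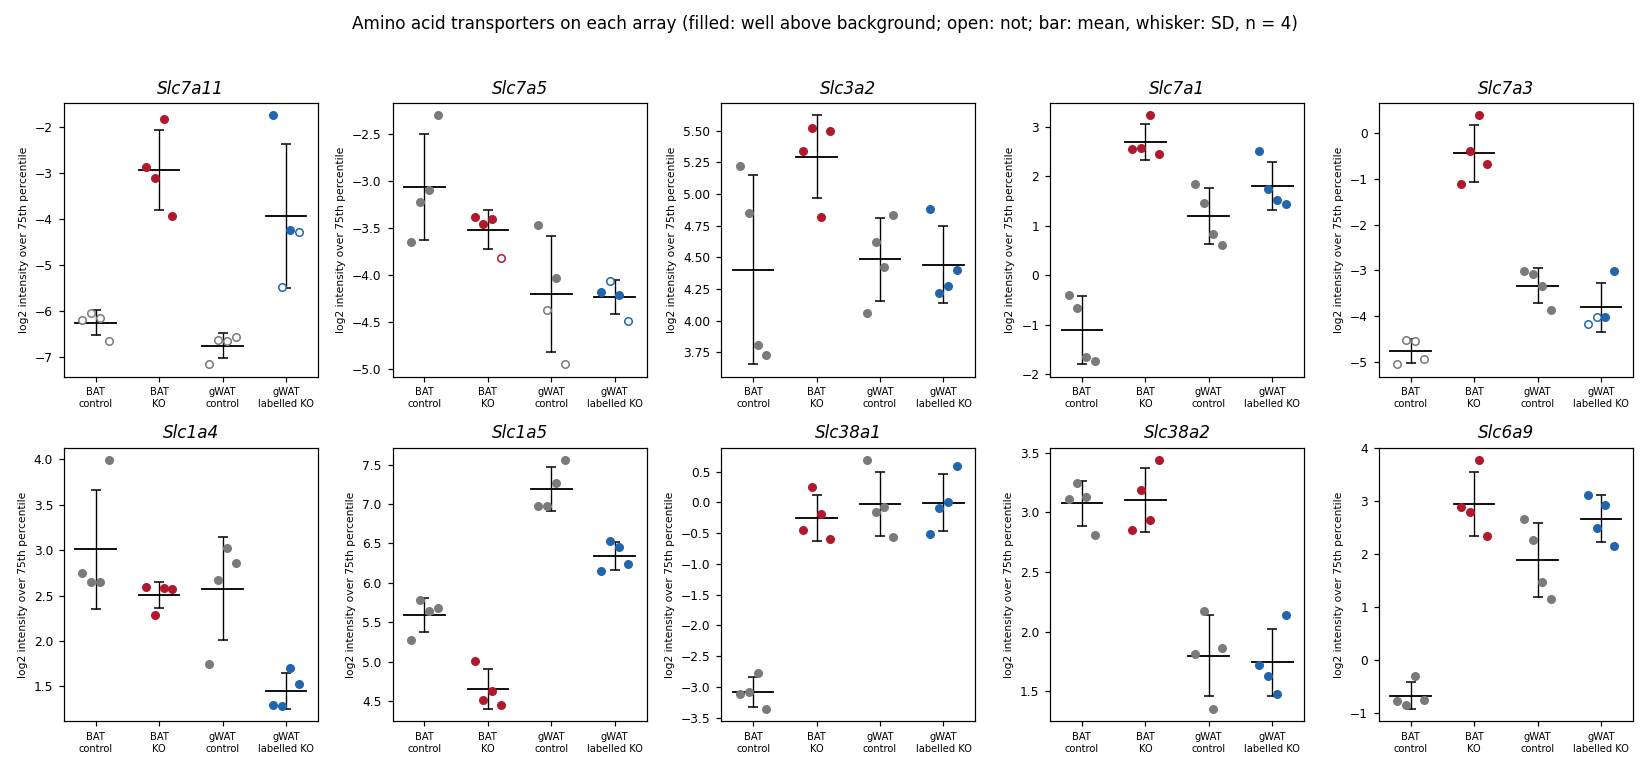
Log2 intensity over the array's 75th percentile of the 10 transporters on each of the 16 arrays, with replicates 1 to 4 from left to right in each group and a separate vertical scale per gene. Filled points were well above background and open points were not; bars are means and whiskers SDs (n = 4). Slc7a11, Slc7a1, Slc7a3, Slc38a1 and Slc6a9 lie higher on all 4 BAT arrays of Adipo-Pgam1 KO mice than on any BAT control array.

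Slc7a11 encodes xCT, which imports cystine in exchange for glutamate and feeds glutathione synthesis. In BAT its level was -6.20, -6.04, -6.15 and -6.65 on the 4 control arrays and -2.86, -3.10, -1.82 and -3.93 on the 4 KO arrays. No control array was well above background and all 4 KO arrays were, and the groups did not overlap. Slc7a11 was at least 2.05-fold higher in the KO mice, measured against the lowest signal well above background on each control array. The fitted log2 change, which starts from levels in the background, was 3.34 (standard error 0.39, limma adjusted p = 0.0001242), and it was 3.72 within slide 2 and 0.69 with normexp background correction. In gWAT, the control arrays stood at -7.16, -6.64, -6.66 and -6.56, none of them well above background. The gWAT arrays labelled KO stood at -1.74, -5.47, -4.24 and -4.29, of which replicates 1 and 3 were well above background. All 4 lay above the controls, with replicate 1 far above the other 3. Slc7a11 was not tested in gWAT, because neither group was above background on all of its arrays. A second probe for Slc7a11 changed less, with a difference in means of 1.65 in BAT and 1.05 in gWAT. In KO mice it was well above background on 3 BAT arrays, with replicate 4 among the control levels, and on 1 gWAT array labelled KO, which was replicate 1 again.

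The window of 250 bases before the start of Slc7a11 is shown because it holds a motif of the amino acid response. It is followed by windows of Slc7a1, Slc6a9 and Slc38a2 that hold the second motif searched. Windows without a match are not shown. RefSeq promoter entries (GRCm38.p6) were found for 6 of the 10 transporters, with 9 windows. The letters searched, on both strands and in the window from 250 bases before to 50 after each start, were TGATGNAA, the core of the C/EBP-ATF response element bound by Atf4, and TGACNNNGC, the core of the antioxidant response element bound by Nrf2. TGATGNAA is in 3.97% of all 32851 promoter windows and TGACNNNGC in 12.39%. The windows are given in the direction of transcription with matches in capitals. The Slc7a11 window lies at chr3:50443614-50443863 on the minus strand, that of Slc7a1 at chr5:148399905-148400154 on the minus strand, that of Slc6a9 at chr4:117849100-117849349 on the plus strand and that of Slc38a2 at chr15:96699729-96699978 on the minus strand.
Slc7a11: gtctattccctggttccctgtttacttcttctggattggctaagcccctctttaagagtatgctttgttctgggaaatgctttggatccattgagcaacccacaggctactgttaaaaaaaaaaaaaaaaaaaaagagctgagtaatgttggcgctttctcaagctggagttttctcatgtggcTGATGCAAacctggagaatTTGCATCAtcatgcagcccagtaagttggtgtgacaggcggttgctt
Slc7a1: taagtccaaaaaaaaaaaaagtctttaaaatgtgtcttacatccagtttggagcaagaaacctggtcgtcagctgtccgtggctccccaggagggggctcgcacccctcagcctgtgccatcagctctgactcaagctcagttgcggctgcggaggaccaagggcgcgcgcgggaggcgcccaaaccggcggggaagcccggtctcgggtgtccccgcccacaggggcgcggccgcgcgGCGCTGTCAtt
Slc6a9: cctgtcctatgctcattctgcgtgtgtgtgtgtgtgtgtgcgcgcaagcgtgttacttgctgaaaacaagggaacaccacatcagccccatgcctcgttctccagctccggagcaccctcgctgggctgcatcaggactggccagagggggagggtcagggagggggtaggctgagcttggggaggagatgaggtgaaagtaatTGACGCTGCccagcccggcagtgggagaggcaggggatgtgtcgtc
Slc38a2: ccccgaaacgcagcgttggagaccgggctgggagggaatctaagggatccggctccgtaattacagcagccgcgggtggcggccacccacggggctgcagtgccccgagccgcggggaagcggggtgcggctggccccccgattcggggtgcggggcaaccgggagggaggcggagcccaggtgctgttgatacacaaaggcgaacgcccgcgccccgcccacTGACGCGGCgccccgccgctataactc

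Slc7a11 holds TGATGNAA at 2 places, from 66 to 59 bases before the start on the given strand and from 47 to 40 bases before it on the opposite strand. The windows shown for Slc7a1, Slc6a9 and Slc38a2 hold TGACNNNGC, from 11 to 3, from 46 to 38 and from 27 to 19 bases before the start. Slc38a2 did not pass the threshold in BAT and the other 3 did. Another of the 3 Slc6a9 windows holds TGACNNNGC as well, Slc1a4 has a TGATGNAA match across its start, and the window of Slc3a2 has neither. The last Slc6a9 window and a second window of Slc7a1 have neither as well. The shares over all promoters are per window, not per gene. Of 22 amino acid response genes with an entry, 8 hold TGATGNAA in at least 1 window. A match is a description of the letters, and no binding was measured.

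The carriers of the cationic amino acids arginine, lysine and ornithine were Slc7a1 (CAT1), which most tissues express, and Slc7a3 (CAT3), which is best known from brain. Slc7a1 stood at -0.39, -0.66, -1.66 and -1.73 on the BAT control arrays and at 2.55, 2.56, 3.23 and 2.44 on the BAT arrays of KO mice. Every KO array was higher than every control array, and the lowest KO array, at 2.44, lay far above the highest control, at -0.39. The log2 change was 3.80 (standard error 0.33, limma adjusted p = 3.209e-05), a 13.9-fold higher level, and 4.42 within the slide. In gWAT, Slc7a1 stood at 1.84, 1.46, 0.84 and 0.61 in controls and at 2.51, 1.74, 1.51 and 1.44 in the arrays labelled KO. These groups overlapped, and the change of 0.61 (standard error 0.32, limma adjusted p = 0.216) did not pass the threshold.

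Slc7a3 stood at -5.05, -4.53, -4.54 and -4.93 on the BAT control arrays, none of them well above background, and at -1.10, -0.39, 0.40 and -0.66 on the BAT arrays of KO mice, all well above background. The groups were far apart. The level in KO mice was at least 11.5-fold higher, and the fitted log2 change, which again starts from the background, was 4.32 (standard error 0.30, limma adjusted p = 1.261e-05). With normexp background correction it was 2.10. In gWAT, Slc7a3 stood at -3.02, -3.08, -3.35 and -3.87 in controls and at -4.18, -4.01, -4.01 and -3.01 in the arrays labelled KO, of which 2 were well above background. Replicate 4 of the latter lay above all controls and the other 3 below them, and the change of -0.47 did not pass the threshold (standard error 0.29, limma adjusted p = 0.281). Without replicate 4 of the gWAT arrays labelled KO, it was -0.74 and passed (limma adjusted p = 0.045). Within slide 3, the value was 0.07.

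Slc6a9 (GlyT1) imports glycine together with sodium and chloride. Its level was -0.78, -0.85, -0.29 and -0.75 on the BAT control arrays and 2.90, 2.79, 3.78 and 2.34 on the BAT arrays of KO mice. The groups did not overlap, and the log2 change was 3.62 (standard error 0.28, limma adjusted p = 2.112e-05), a 12.3-fold higher level. Within the slide it was 3.70. In gWAT the levels were 2.67, 2.27, 1.47 and 1.15 in controls and 3.12, 2.49, 2.93 and 2.15 in the arrays labelled KO. These overlapped, and the change of 0.79 did not pass the threshold (standard error 0.36, limma adjusted p = 0.154). The gWAT controls thus stood nearer to the BAT arrays of KO mice than to the BAT controls.

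Slc38a1 and Slc38a2 (SNAT1 and SNAT2) are sodium-coupled carriers of glutamine, alanine and other small neutral amino acids, and Slc38a2 is a known target of amino acid shortage. In BAT, Slc38a1 stood at -3.12, -3.09, -2.77 and -3.36 in controls and at -0.45, 0.25, -0.19 and -0.60 in KO mice. The groups did not overlap, and the log2 change was 2.84 (standard error 0.20, limma adjusted p = 1.37e-05), a 7.14-fold higher level, and 3.11 within the slide. In gWAT the levels were 0.69, -0.16, -0.08 and -0.56 in controls and -0.52, -0.09, 0.00 and 0.60 in the arrays labelled KO, with wide overlap and a change of 0.03 (standard error 0.30, limma adjusted p = 0.963). A second probe of Slc38a1 had differences in means of 3.41 in BAT, where no control array was well above background, and 0.47 in gWAT, whereas the third was well above background on 1 of 16 arrays and gave no level. Slc38a2 did not move with Slc38a1. In BAT it stood at 3.11, 3.25, 3.13 and 2.81 in controls and at 2.85, 3.19, 2.94 and 3.44 in KO mice, and the change was 0.03 (standard error 0.16, limma adjusted p = 0.896). Under spike-in scaling, which shifts the median of all genes to 0.46 in BAT, Slc38a2 changed by 0.57 and passed the threshold (limma adjusted p = 0.003519). In gWAT, it stood at 1.81, 2.17, 1.35 and 1.86 in controls and at 1.72, 1.63, 1.48 and 2.14 in the arrays labelled KO, with a change of -0.06 (standard error 0.21, limma adjusted p = 0.874).

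Slc1a4 (ASCT1) and Slc1a5 (ASCT2) exchange neutral amino acids, serine among them for both and glutamine for Slc1a5. In BAT, Slc1a5 stood at 5.28, 5.78, 5.64 and 5.68 in controls and at 5.01, 4.51, 4.63 and 4.45 in KO mice. Every KO array was lower, and the change was -0.94 (standard error 0.16, limma adjusted p = 0.0009355). In gWAT it stood at 6.97, 6.97, 7.27 and 7.56 in controls and at 6.15, 6.53, 6.45 and 6.24 in the arrays labelled KO, again without overlap, and the change was -0.85 (standard error 0.17, limma adjusted p = 0.0143). The level was 1.92-fold lower in BAT and 1.80-fold lower in gWAT. Under spike-in scaling, which shifts the median of all genes to 0.49 in gWAT, Slc1a5 changed by -0.40 in BAT (limma adjusted p = 0.125) and by -0.41 in gWAT (limma adjusted p = 0.104) and passed in neither tissue. In gWAT it also missed the threshold with the arrays centred on their medians, at -0.73, and within the slide, at -1.22 (limma adjusted p = 0.052).

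Slc1a4 stood at 1.75, 2.67, 3.02 and 2.86 on the gWAT control arrays and at 1.30, 1.28, 1.70 and 1.53 on those labelled KO. The groups did not overlap, though control replicate 1, at 1.75, lay close to the highest array labelled KO, at 1.70. The change was -1.12 (standard error 0.27, limma adjusted p = 0.0254), and it passed in 3 of 8 fits that left out 1 array. It did not pass without control replicate 2, 3 or 4, at -1.09, -0.97 and -1.03, or without replicate 1 or 2 of the arrays labelled KO, at -1.07 each (limma adjusted p between 0.0535 and 0.069). In BAT, Slc1a4 stood at 2.75, 2.65, 2.65 and 3.99 in controls and at 2.59, 2.29, 2.58 and 2.57 in KO mice. All KO arrays were lower, but control replicate 4 stood far above the rest, and the change of -0.50 did not pass the threshold (standard error 0.29, limma adjusted p = 0.159). That array is the control on slide 2, so the value within the slide was -1.48, and without the array it was -0.18.

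Slc3a2 encodes the CD98 heavy chain that carries xCT and LAT1 to the membrane. In BAT its brightest probe stood at 5.22, 4.85, 3.81 and 3.73 in controls and at 5.34, 5.52, 4.82 and 5.5 in KO mice. The controls were spread widely and the groups overlapped. The change of 0.89 was just short of the threshold (standard error 0.35, limma adjusted p = 0.0524). It passed without control replicate 1, at 1.17 (limma adjusted p = 0.0119), without control replicate 2, at 1.04, and without KO replicate 3, at 1.05, and also under several other scalings and within the slide, at 1.57. The second probe went the other way. It stood at 3.91, 3.92, 4.14 and 4.27 in controls and at 2.58, 2.78, 2.63 and 3.33 in KO mice, a difference in means of -1.23 without overlap. With the mean of both probes, the change was -0.17, so no direction is given for Slc3a2 in BAT. In gWAT the brightest probe changed by -0.04 (standard error 0.21, limma adjusted p = 0.919) and the second by -0.07.

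**Figure D2:**
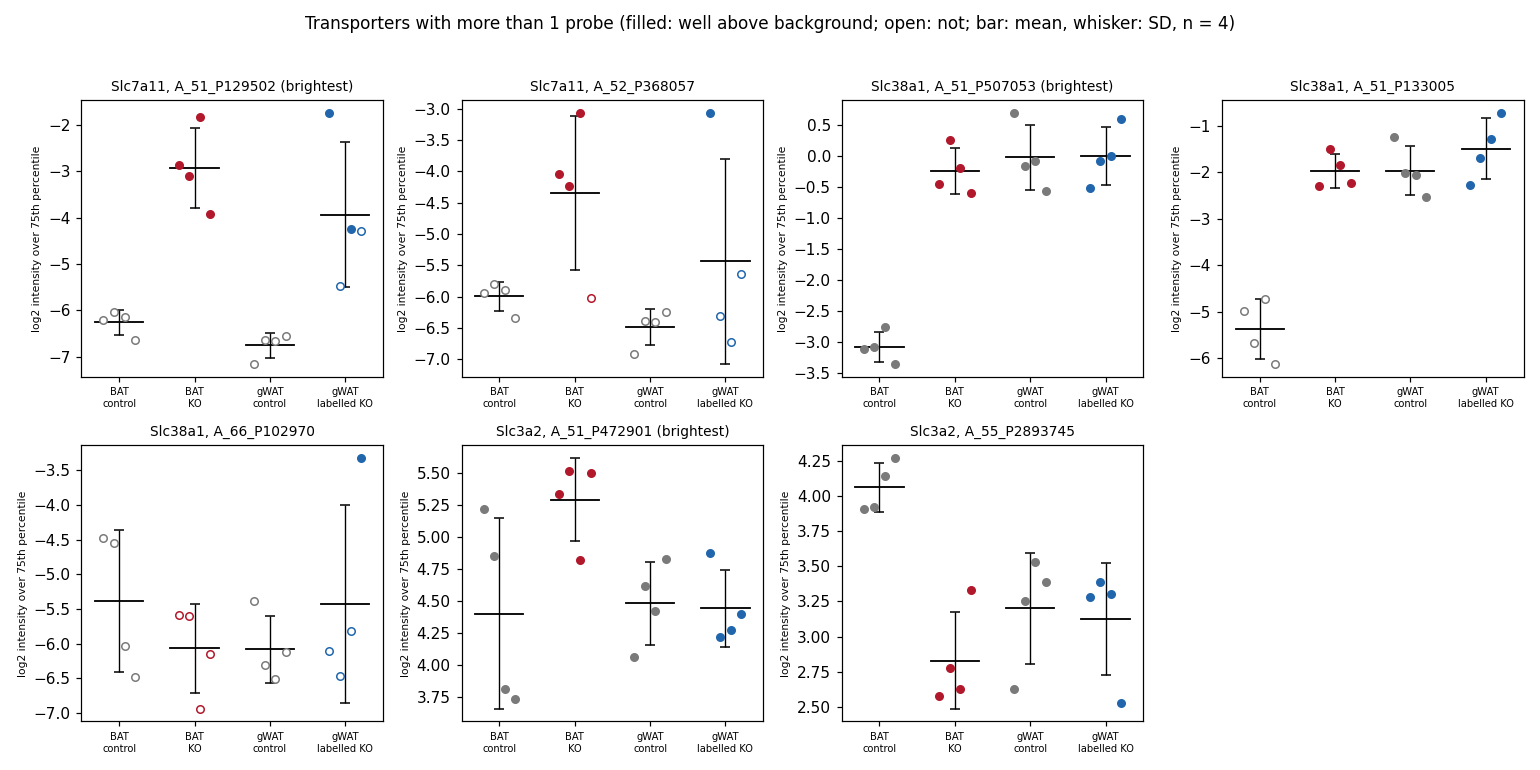
Log2 intensity over the array's 75th percentile of each probe of Slc7a11, Slc38a1 and Slc3a2, the transporters with more than 1 probe, on each array (points as in the plot of the 10 transporters). The probes of Slc3a2 differ in direction in BAT, with mean differences of 0.89 and -1.23, and the third probe of Slc38a1 is open, not well above background, on all but 1 array.

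Slc7a5 (LAT1) exchanges leucine and other large neutral amino acids. In BAT it stood at -3.65, -3.22, -3.10 and -2.30 in controls and at -3.38, -3.46, -3.41 and -3.82 in KO mice, of which replicate 4 was not well above background. The groups overlapped, and the change was -0.45 (standard error 0.26, limma adjusted p = 0.166). It passed without control replicate 1, at -0.64 (limma adjusted p = 0.0459), within the slide, at -1.22, and with normexp background correction, at -0.59 (limma adjusted p = 0.0016). In gWAT, Slc7a5 was well above background on 2 arrays of each group and was not tested, with levels from -4.95 to -3.47 in controls and from -4.49 to -4.07 in the arrays labelled KO.

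**Figure D3:**
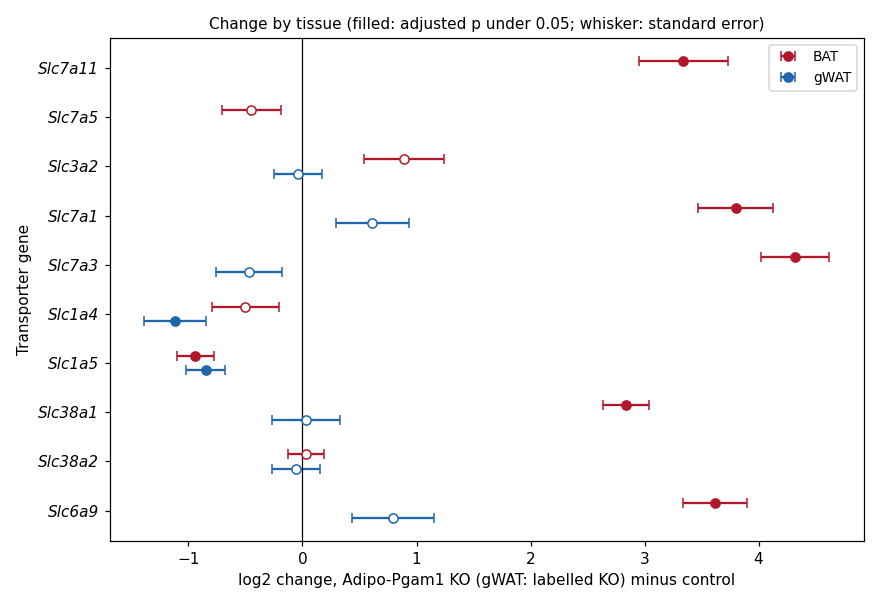
Log2 change of each transporter, Adipo-Pgam1 KO (in gWAT, labelled KO) minus control, in BAT (red) and gWAT (blue), with the standard error from limma as whisker and filled points at an adjusted p under 0.05. Slc7a11 and Slc7a5 have no gWAT point, since they were not tested there; 5 BAT points lie between 2.84 and 4.32 and no gWAT point lies above 0.79.

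The change differed between the tissues for 4 of the 10 transporters by the interaction of tissue and genotype (limma over all 16 arrays, adjusted p under 0.05), and all 4 were more positive in BAT. Of all 14807 genes tested for the interaction, 48.3% passed, 27.4% more positive in gWAT and 21% more positive in BAT. The change in gWAT minus that in BAT was -4.80 for Slc7a3 (standard error 0.44, adjusted p = 5.428e-06) and -3.19 for Slc7a1 (standard error 0.50, adjusted p = 0.0001704). For Slc6a9 it was -2.84 (standard error 0.49, adjusted p = 0.0003478) and for Slc38a1 -2.81 (standard error 0.39, adjusted p = 6.934e-05). The value of Slc7a3 rests on BAT controls in the background and was -2.34 with normexp background correction. Within slides, Slc6a9 missed the threshold at -2.17 (adjusted p = 0.0525), and the other 3 passed. For Slc7a11 the difference was -0.52 (standard error 0.84, adjusted p = 0.639), with control levels in the background in both tissues. Slc1a5 had a difference of 0.09 (standard error 0.24, adjusted p = 0.772). That of Slc3a2 was -0.93 with its brightest probe (standard error 0.43, adjusted p = 0.0904) and passed without BAT control replicate 1, at -1.20, and within slides, at -1.95. That of Slc1a4 was -0.62 (standard error 0.42, adjusted p = 0.24) and passed without BAT control replicate 4, at -0.94. Slc7a5 and Slc38a2 had differences of 0.42 (standard error 0.41, adjusted p = 0.424) and -0.08 (standard error 0.27, adjusted p = 0.818), and Slc7a5 passed within slides, at 1.93, and with normexp, at 0.54.

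Between the control tissues, 9 of the 10 transporters were tested and 7 differed (limma, adjusted p under 0.05), 2 higher in BAT and 5 higher in gWAT. Of all 14291 genes tested in this comparison, 64.7% passed, 35.4% higher in BAT and 29.3% higher in gWAT. The arrays of 6 of the 9 did not overlap, nor did those of 60.8% of all genes, 33.6% higher in BAT and 27.2% higher in gWAT. Slc38a2 was higher in BAT by 1.28 (standard error 0.18, adjusted p = 0.0003588), without overlap. Slc7a5 was higher in BAT by 1.14 (standard error 0.36, adjusted p = 0.0225), with overlap, and missed the threshold without BAT control replicate 4, at 0.88, or without gWAT control replicate 2, at 1.08, or 4, at 0.89. BAT minus gWAT was -3.06 for Slc38a1 (standard error 0.26, adjusted p = 1.673e-05), -2.56 for Slc6a9 (standard error 0.33) and -2.30 for Slc7a1 (standard error 0.38). The fitted levels of these 3 were 4.91-fold to 8.33-fold higher in gWAT, and their groups did not overlap. Slc1a5 was 3.03-fold higher in gWAT, with a difference of -1.60 (standard error 0.17, adjusted p = 6.803e-05). Slc7a3, in the background in BAT, was at least 1.56-fold higher in gWAT, but with normexp background correction the difference was -0.14 and missed the threshold (adjusted p = 0.239). Slc1a4 differed by 0.44 and did not pass. With the slide as a fixed block it differed by 1.51, a value of BAT control replicate 4 alone against gWAT control replicates 1 to 3. Without that BAT array the difference was 0.11 and did not pass. Slc3a2 differed by -0.08 with its brightest probe and did not pass, whereas its second probe was higher in BAT by 0.86, without overlap.

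Ordered by group means, BAT of Adipo-Pgam1 KO mice stood highest for Slc7a11, Slc7a1, Slc7a3, Slc38a2 and Slc6a9. For Slc7a3 the distance to the next group, gWAT controls, was 2.89 with no overlap, whereas for the other 4 the arrays overlapped with those of the next group. gWAT controls stood highest for Slc1a5, where no neighbouring groups overlapped in the order gWAT controls, gWAT labelled KO, BAT controls and BAT of KO mice. BAT controls stood lowest for Slc7a1, Slc7a3, Slc38a1 and Slc6a9 and did not overlap with the group above. For Slc3a2 no order is given, since BAT controls were lowest by its brightest probe and highest by the second. Slc38a1 in BAT of KO mice overlapped with both gWAT groups. BAT controls stood highest for Slc7a5 and Slc1a4, where they overlapped with the next group.

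Among the transporters, the closest patterns over the 16 arrays were those of Slc7a1 and Slc6a9. Their log2 levels, each centred on its mean over the arrays, differed by 0.49 as a root mean square, against 1.48 and 1.5 for each around its own mean. Slc38a1 differed from Slc6a9 by 0.68, from Slc7a1 by 0.84 and from Slc38a2 by 1.83. Among 12372 genes well above background on all 16 arrays, those nearest to Slc7a11 were Stbd1 (0.75), 9130401M01Rik (0.82) and Trib3 (0.82), the last of which encodes a pseudokinase induced in the integrated stress response. Slc7a11 itself varied by 1.78 around its mean. It was well above background on no control array and on 2 of 4 gWAT arrays labelled KO, so its pattern rests in part on background levels. The other transporters searched were well above background on all 16 arrays. The gene nearest to Slc7a1 was Casp4, which encodes an inflammatory caspase (0.45), that nearest to Slc38a1 was Myof (0.32) and that nearest to Slc6a9 was Plcl2 (0.48). Pank3, a kinase of coenzyme A synthesis, was nearest to Slc1a5 (0.17), Baz1a to Slc3a2 (0.25), Mrgbp to Slc38a2 (0.21) and Zfp133-ps to Slc1a4 (0.14).

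Other plasma membrane carriers of amino acids moved in both directions. Of 33 listed, 15 were tested in BAT, and 4 rose and 5 fell with the knockout (limma, adjusted p under 0.05), with a median log2 change of -0.25. Their share past the threshold was 60%, near the 61.4% of all genes. Slc7a2, a further cationic carrier that activated macrophages also use, was in the background on all BAT control arrays, from -5.60 to -4.57, and stood between -3.06 and -1.81 in KO mice, at least 2.72-fold higher. Slc7a7, the light chain of a cationic and neutral exchanger, rose by 2.08 (standard error 0.18, adjusted p = 3.188e-05), from levels of -1.08 to -0.38 in controls to 1.11 to 1.58 in KO mice. Slc43a2, a facilitative carrier of large neutral amino acids, rose by 0.69. The falls were led by Slc36a2, a proton-coupled carrier known as a surface marker of brown and beige adipocytes, from 6.84 to 7.20 in controls to 4.36 to 5.33 in KO mice, a change of -2.16 (standard error 0.19, adjusted p = 3.504e-05). Slc1a3, a glutamate and aspartate carrier, fell by 2.03 and Slc6a19, a neutral amino acid carrier best known from gut and kidney, fell by 2.01. In none of these 6 did the BAT groups overlap, except for Slc43a2, where control replicate 1 lay within the range of the KO arrays.

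In gWAT, 17 of the other plasma membrane carriers were tested, and 1 rose and 3 fell in the group labelled KO, with a median of -0.27. Their share past the threshold was 23.5%, against 17.9% of all genes. Slc43a2 rose by 1.11 (standard error 0.21, limma adjusted p = 0.0133). Slc1a3 fell by 2.0 (standard error 0.36, limma adjusted p = 0.009901), from 3.42 to 4.89 in controls to 1.57 to 2.69. Slc7a10 (ASC1), an exchanger of small neutral amino acids known as a surface marker of white adipocytes, fell by 1.5 (standard error 0.20, limma adjusted p = 0.003401), from levels of 5.11 to 5.92 in controls to 3.79 to 4.14. Slc1a1, a glutamate carrier that also takes cysteine, fell by 1.13. Slc36a2 changed by 0.11 in gWAT and Slc7a10 by -0.26 in BAT, and neither passed.

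Carriers inside the cell were listed as well. Of all genes, 61.4% passed the threshold in BAT and 17.9% in gWAT. Of 9 lysosomal carriers, all were tested, and 2 rose and 1 fell in knockout BAT (33.3%), with a median of 0.02. Slc15a3, a lysosomal peptide and histidine carrier that macrophages express, rose by 3.17 (standard error 0.36, limma adjusted p = 0.000118), whereas the cystine carrier Ctns rose by 0.34 and Slc38a7 fell by 0.23. In gWAT, 1 was higher (11.1%), Slc66a1, a cationic carrier, by 0.78. Of 10 mitochondrial carriers, 9 were tested in BAT, 2 were higher and 6 lower (88.9%), with a median of -0.52. Both that rose were the aspartate and glutamate carriers Slc25a12, by 2.58 (standard error 0.19, limma adjusted p = 1.829e-05), and Slc25a13, which was in the background on all BAT control arrays and at least 1.94-fold higher in KO mice. The largest falls were those of the ornithine carrier Slc25a2, by 1.69, to a level well above background on 1 KO array, of Slc25a29, a carrier of basic amino acids, by 1.60, and of the glycine carrier Slc25a38, by 0.92. In gWAT, 2 of 8 were higher, the glutamate carrier Slc25a22 by 1.15 and Slc25a12 by 0.87, and 1 was lower, Slc25a29, by 1.12. The share past the threshold there was 37.5%, with a median of 0.03.

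Of 24 other genes of the amino acid response, 15 rose and 4 fell in knockout BAT (limma, adjusted p under 0.05), with a median of 1.52. Their share past the threshold was 79.2% in BAT and 41.7% in gWAT, against 61.4% and 17.9% of all genes. The largest rises were in the stress hormones Gdf15, from levels of -6.02 to -3.14 in controls to 4.71 to 5.23, and Fgf21, from -6.07 to -3.51 to 1.72 to 2.25, and in Psat1, an enzyme of serine synthesis, by 4.89 (standard error 0.17, limma adjusted p = 8.943e-07). Gdf15 was well above background on 2 BAT control arrays and Fgf21 on 1. Those that fell most were Eif4ebp1, by 1.11, Vldlr, by 1.01, and Cebpb, by 0.83. In gWAT, 10 rose and 0 fell, with a median of 0.51, led by Fgf21, by 4.15, Mthfd2, an enzyme of mitochondrial folate metabolism, by 3.49, and Gdf15, by 3.01. Of these genes, 15 of 24 passed the interaction (62.5%, against 48.3% of all genes), 11 more positive in BAT and 4 more positive in gWAT. Of 8 targets of Nrf2, which also acts on Slc7a11, 4 were higher and 1 lower in BAT, with a median of 0.63, and 5 were higher and 0 lower in gWAT, with a median of 0.90. In each tissue 62.5% of them passed, which in BAT is near the 61.4% of all genes, whereas in gWAT 17.9% of all genes did. Nqo1, Hmox1 and Srxn1 rose in BAT by 3.0, 2.19 and 1.36, and G6pdx fell by 0.73. In gWAT, Srxn1, Gclm and G6pdx rose by 1.87, 1.4 and 1.11.

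**Figure D4:**
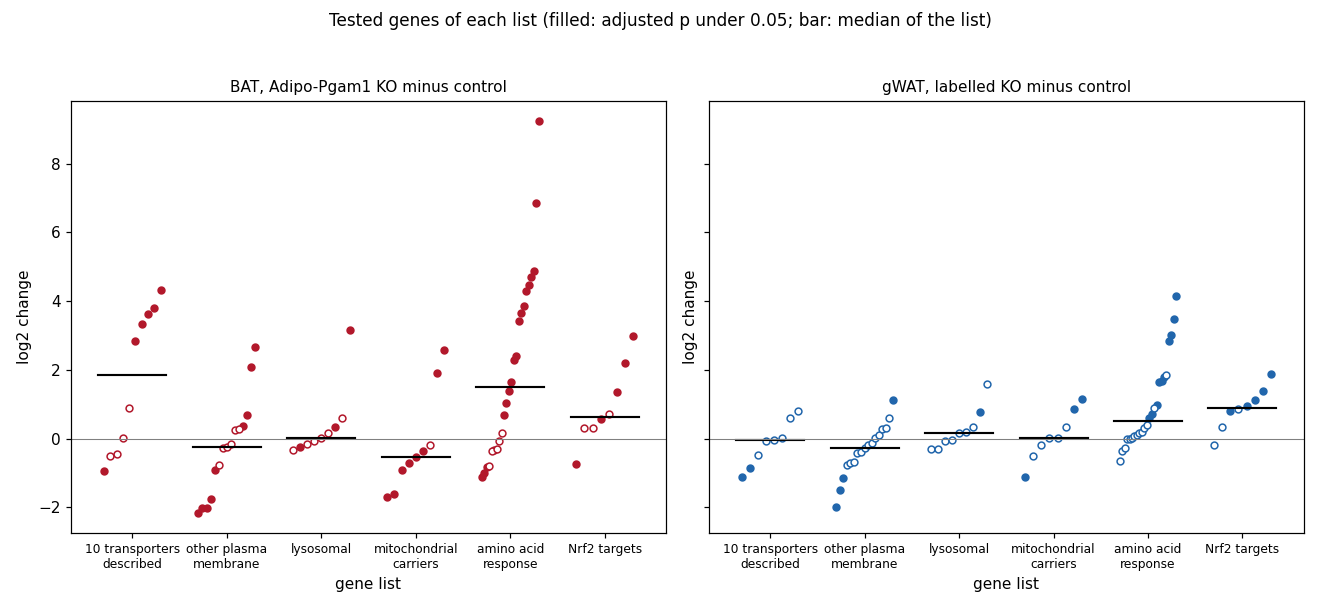
Log2 change in BAT (left) and gWAT (right) of every tested gene of the 10 transporters and of the 5 other lists, 1 point per gene in order of its change, with filled points at an adjusted p under 0.05 and a bar at the list's median. The BAT medians are 1.86 for the 10 transporters, -0.25 for the other plasma membrane carriers, 0.02 for the lysosomal and -0.52 for the mitochondrial carriers, 1.52 for the amino acid response genes and 0.63 for the Nrf2 targets.

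Markers of other cell types moved with the genotype in BAT. Of all genes tested, 61.4% passed the threshold in BAT and 17.9% in gWAT. All 11 macrophage markers were higher in knockout BAT, and their summed intensity, relative to the 75th percentile, was 22.4 to 36.8 in controls and 113.1 to 167.9 in KO mice. All 6 general adipocyte markers were lower, with sums of 2589 to 2847 and 903 to 1246, and 6 of 7 preadipocyte and fibroblast markers were higher. Of 8 T and NK cell markers, 5 of the 7 tested were higher as well. Skeletal muscle markers summed to 0.555 to 1.29 on BAT control arrays and to 96.7, 1.06, 17.0 and 1.64 on KO replicates 1 to 4. Of the BAT KO arrays, replicate 3 had the highest level of Slc7a11, Slc7a1, Slc7a3 and Slc6a9 and replicate 2 that of Slc38a1. Each rise passed the threshold without replicate 1 and without replicate 3, but no fit left out both. In gWAT, 3 of 11 macrophage markers were higher in the arrays labelled KO, with sums of 75.7 to 114 in controls and 84.1, 119, 153 and 272 in replicates 1 to 4 labelled KO. Their muscle markers summed to 29.9 to 58.3, against 3.56 to 24.9 for the gWAT controls. That sum was carried by Acta1, with means of 5.48 and 3.28, while the mean over the list was -3.29 and -3.09 and none of the 5 muscle markers tested passed the threshold. Replicate 1, the lowest of these in macrophage markers, had the highest Slc7a11 level in gWAT. Between the control tissues, all 11 macrophage markers were lower in BAT, as were Slc7a1, Slc7a3, Slc38a1, Slc6a9 and Slc1a5. Of these transporters, Slc1a5 fell in knockout BAT, where the macrophage markers rose. Slc38a2 and Slc7a5 were higher in BAT than in gWAT of controls. The part of these cell types in the transporter results was not tested.

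**Figure D5:**
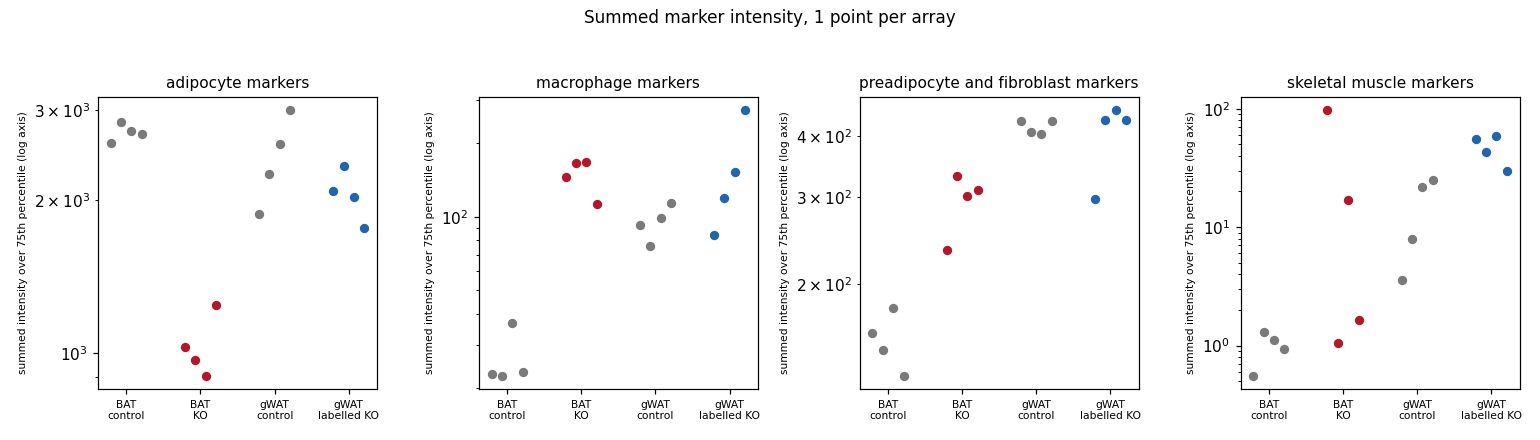
Summed intensity over the array's 75th percentile (log axis) of 4 marker lists, adipocyte, macrophage, preadipocyte and fibroblast, and skeletal muscle, with 1 point per array and replicates 1 to 4 from left to right in each group. The macrophage sums of the 4 BAT arrays of Adipo-Pgam1 KO mice, 113.1 to 167.9, lie above those of the BAT controls, 22.4 to 36.8, and the adipocyte sums, 903 to 1246, lie below 2589 to 2847.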

How the data were processed

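Gene expression was measured on 16 1-colour Agilent arrays, 4 for each of BAT and gWAT of littermate controls and Adipo-Pgam1 KO mice. Per the labels, the authors extracted signals with Agilent Feature Extraction 10.7.1.1, and their methods name GeneSpring GX 12.0 for normalization. The deposited scanner files give a background-subtracted signal intensity per spot, and the deposited series table gives normalized intensities, close to the intensity divided by the array's 75th percentile. The labels and the methods give different amounts of RNA per array.

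Here the log2 intensity minus the log2 of the array's 75th percentile was used, without control spots or spots with an irregular shape. Spots of a probe were averaged. Probes were named through RefSeq accessions (GRCm38.p6), of which 91.9% matched, and 37 named probes with a missing value were left out. Genes entered a test when a group compared had the probe well above background on each of its 4 arrays. Groups were compared with limma 3.58.1 in R 4.3.3 with Benjamini-Hochberg adjustment over all genes tested, within each tissue, between control tissues and for the interaction. Where a group was in the background on every array, the fold is a bound against the lowest signal well above background. It holds for the 75th percentile scale only. Precision is limited by the 4 arrays per group. The share of probes well above background per array ran from 50.0% to 62.2%. The alternatives were other scalings, background corrections, filters, probe rules, the deposited values, slide and replicate blocks, 1 fit over all arrays, the methods' t-test and leaving out each array.

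The transporters and all lists were chosen with earlier results of these data known. Named are the transporters and Pgam1, up to 3 higher and 3 lower genes of each other carrier or pathway list and tissue by size of change among those past the threshold, and the genes of nearest pattern. Same-numbered BAT and gWAT arrays of a genotype had correlations from -0.117 to 0.254, and same-numbered control and KO arrays of a tissue from -0.119 to 0.514. The numbers were not taken to pair the samples. Whether BAT and gWAT came from the same mice is not labelled, so the main tests between tissues treat the arrays as separate.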

Additional observations from a re-analysis of the deposited data

Results flagged for a closer look

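In 5 of the 40 groups of 4 arrays formed by the 10 transporters, 1 array stood far from the other 3, judged by its gap to the nearest array over the group's range. Chance flags about 1 group in 20. These arrays were gWAT control replicate 1 for Slc7a11 (-7.16, in the background like the other 3), BAT KO replicate 3 for Slc7a1 (3.23) and replicate 4 of the gWAT arrays labelled KO for Slc7a3 (-3.01). For Slc1a4 they were BAT control replicate 4 (3.99) and BAT KO replicate 2 (2.29).

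The genotype difference in gWAT minus that in BAT passed the interaction test in limma for Slc7a1 (-3.19), Slc7a3 (-4.80), Slc38a1 (-2.81) and Slc6a9 (-2.84). Each was more positive in BAT, and each was past the threshold in every fit that left out 1 array. The value of Slc7a3 starts from BAT controls in the background and was -2.34 with normexp background correction.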

How the results depend on the processing

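The rises of Slc7a11, Slc7a1, Slc7a3, Slc38a1 and Slc6a9 in BAT kept their direction and passed the threshold under every alternative that gave a value, and the fall of Slc1a5 in BAT under all but spike-in scaling. Slc7a11 and Slc7a3, in the background on every BAT control array, gave no value under the filter for signal on all arrays. The second Slc7a11 probe entered no fit, and Slc7a1, Slc7a3 and Slc6a9 have 1 probe, so averaging probes did not change these genes. For the dimmest of the 5, Slc7a11 and Slc7a3, the lowest values were those of normexp background correction, 0.69 and 2.10. Over the alternatives, Slc38a1 went as low as 1.85 in BAT, and its interaction ran from -3.01 to -1.86. Without single arrays, 6 to 8 transporters passed in BAT and 1 to 3 in gWAT, where the number of all genes past the threshold ran from 1141 to 3231. In gWAT, the main count of 2524 genes became 1380 with median centring, 5094 with spike-in scaling, 1136 with no filter, 4028 in 1 fit over all 16 arrays and 1614 with the methods' t-test, and the 2 transporters became 0 with median centring, 0 with spike-in scaling, 1 with no filter and 1 with the methods' t-test. With the slide as a fixed block, 184 genes and 0 transporters passed in gWAT and 3261 genes passed the interaction. With the replicate block, 1082 genes passed in gWAT, Slc3a2 passed in BAT (0.89, limma adjusted p = 0.0326), Slc7a5 missed the threshold between the control tissues (limma adjusted p = 0.0697), and no other transporter's call changed. Not every sample correlated best with its own number. The cause of these differences was not tested.

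Of the genes past the threshold, 44.8% were higher in BAT and 56.0% in gWAT. These shares were 79.7% and 95.3% with spike-in scaling, and in gWAT 71.1% with median centring and 35.9% with the slide as a fixed block.

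Directions that turned were those of differences that missed the threshold in the main fit. They included the BAT change of Slc3a2, 0.89 in the main fit, its interaction, -0.93, and the interaction of Slc1a4, -0.62. With spike-in scaling, Slc7a5 changed by 0.10 and Slc1a4 by 0.04 in BAT, Slc3a2 by 0.40 and Slc38a2 by 0.39 in gWAT, and the interaction of Slc1a5 was -0.01. With median centring, Slc3a2 changed by 0.08 and Slc38a2 by 0.06 in gWAT, and the interaction of Slc38a2 was 0.01. With the mean of all probes, Slc3a2 changed by -0.17 in BAT, its interaction was 0.11 and BAT minus gWAT in controls was 0.39. With normexp, Slc38a1 changed by -0.01 in gWAT and the interaction of Slc7a11 was 0.09. With quantile normalization the interaction of Slc1a5 was -0.54. With the slide as a fixed block, Slc7a3 changed by 0.07 in gWAT and the interactions of Slc1a4 and Slc1a5 were 0.07 and -0.19. Without single arrays, the ranges that crossed 0 were -0.09 to 0.11 for Slc38a2 in BAT, -0.18 to 0.08 for Slc3a2, -0.18 to 0.26 for Slc38a1 and -0.21 to 0.06 for Slc38a2 in gWAT, -0.23 to 0.04 for the interaction of Slc38a2 and -0.35 to 0.15 for Slc3a2 between control tissues. Signal over background limits Slc7a11, Slc7a3 and Slc7a5 most.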
